A study of Mus musculus with 20 samples.

Results

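Mitochondrial beta oxidation of fatty acids was followed through 10 genes in mouse liver: the carnitine shuttle genes Cpt1a, Slc25a20 and Cpt2, the acyl-CoA dehydrogenase genes Acadvl, Acadl, Acadm and Acads, and the later enzymes of the cycle, Hadha, Hadhb and Hadh. They were picked by gene name from the 38924 genes of the deposited table, and all 10 were found and passed the filter on low values that left 14524 genes for testing. The 20 libraries came from poly(A) RNA of male mice, 5 per group, and each library is 1 liver. Wild type mice on control chow form the group NDWT and on CDAHFD the group HFWT. CDAHFD is a high fat diet without choline, limited in methionine and with L-amino acids in place of protein, used to produce steatohepatitis. Mice labelled as null for thrombospondin-1 (TSP-1, gene Thbs1; JAX stock 006141, a germline mutation) form NDKO on control chow and HFKO on CDAHFD. The labels give a C57/BL6 background for all 4 groups, and the paper C57BL/6J. All mice were bought at 5 weeks of age, rested for 1 week and stayed on their chow for 12 weeks. Mutant and wild type mice were bought as separate lines, and no source used here calls them littermates.

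Fatty acids are burnt inside the mitochondrion, and long-chain acyl groups reach its matrix only as carnitine esters. The cycle then removes acetyl-CoA stepwise in a dehydrogenation, a hydration, another dehydrogenation and a thiolytic cut, with separate enzymes for long, medium and short chains. In the liver the acetyl-CoA feeds ketone body synthesis during fasting, and many genes of the cycle are known targets of PPARα, a nuclear receptor that is activated by fatty acids.

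CDAHFD lowered 5 of the 10 genes in wild type livers, namely Cpt2, Slc25a20, Hadha, Hadhb and Acadm, and 2 of them, Cpt2 and Slc25a20, in livers labelled TSP-1 null. A gene is called here at a Benjamini-Hochberg FDR under 0.05 over all tested genes in limma together with an absolute log2FC above 0.58, which is about a 1.5-fold change. By this rule 4.62% of all tested genes were called lower and 44.1% higher in wild type livers on CDAHFD, against 4% lower and 41.9% higher in livers labelled TSP-1 null. The background was thus moved upwards: the median log2FC of all tested genes was 0.53 and 0.50, so that a gene at its old FPKM had a log2FC below that of most genes. With libraries scaled by median of ratios instead, 15.4% of genes were called lower and 22.7% higher in wild type livers and 13.6% lower and 22.2% higher in the others, and the members called lower became 10 and 8. Differences between genotypes were small, and limma called no member in either of those comparisons. In bulk RNA such as this, fewer cells of a type and less RNA per cell cannot be told apart.

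The libraries held 15641545 to 23276322 fragments, and members had 1906 to 31408 fragments per library. How counting error compares with the spread between mice was not tested. Thbs1 itself went against its labels on control diet. Its FPKM was 0.0580 to 0.326 in NDWT and 0.986 to 1.90 in NDKO (limma, log2FC 2.28, SE 0.24, FDR 1.02e-05), and 3.46 to 6.10 in HFWT against 3.05 to 4.40 in HFKO (log2FC −0.39, SE 0.24, FDR 0.408). The table gives 1 value per gene and does not show from which part of Thbs1 the fragments came, so every genotype comparison below is one between libraries labelled TSP-1 null and libraries labelled wild type. HFWT library 1 was the lowest of its group for 8 of the 10 members and also had the lowest summed FPKM of 12 hepatocyte markers in that group, 29839 against 36971 to 41869. NDKO library 5 was the lowest of its group for 7 members, while its hepatocyte sum, 50951, was the highest there. With both libraries left out, a choice made after the data were seen, the members called lower on CDAHFD still numbered 5 and 2.

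**Figure D1:**
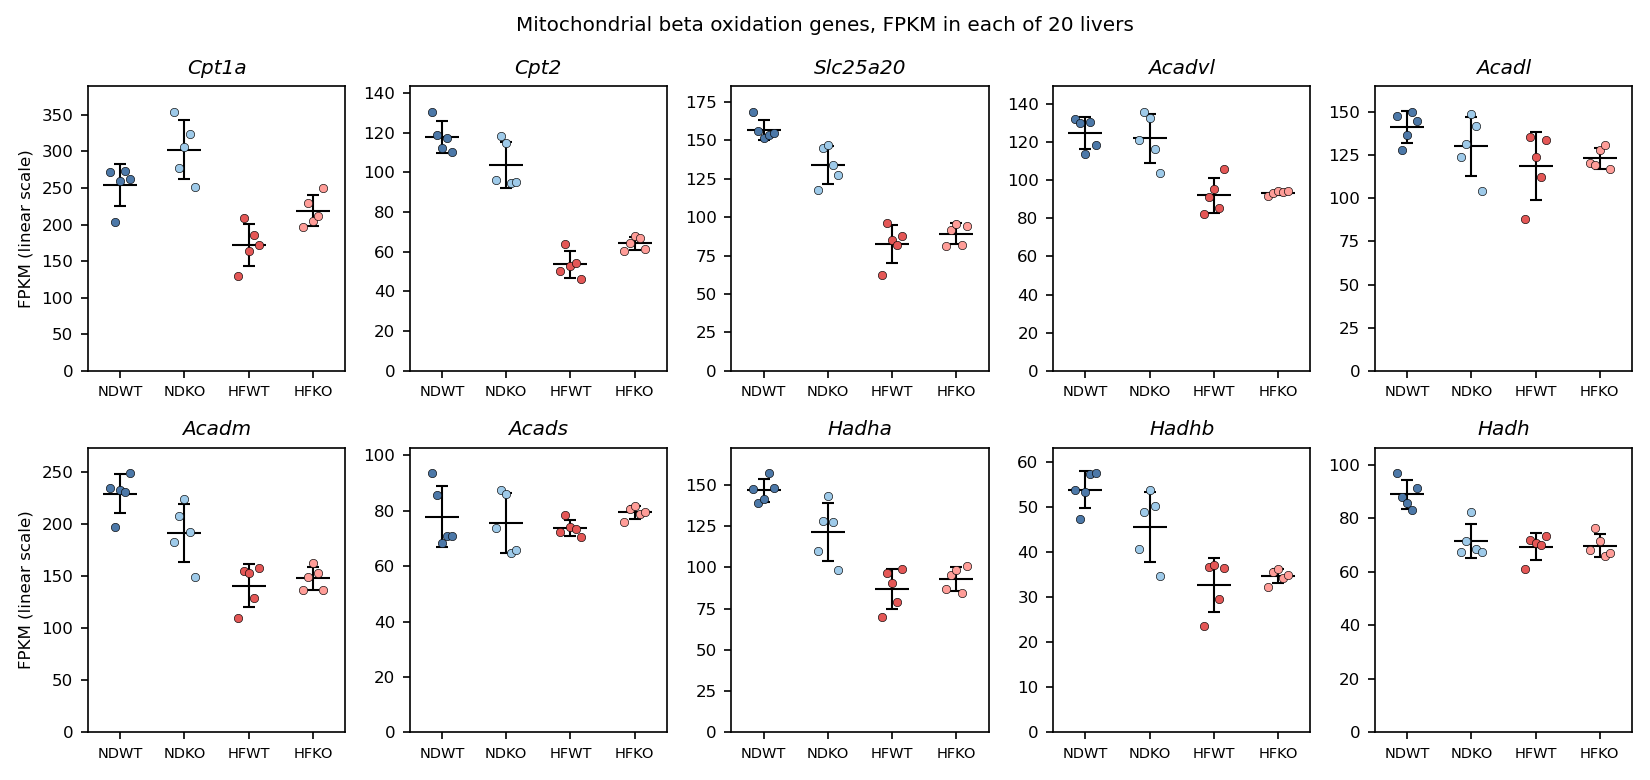
FPKM (linear axes from 0) of each of the 10 genes in each of the 20 livers; points are livers in the order of their replicate numbers, and black bars give the group mean and SD (n = 5). Cpt2 and Slc25a20 show no overlap between diets in either genotype, whereas the values of Acads overlap across all 4 groups.

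The carnitine shuttle carries the long acyl groups inwards. Cpt1a, the outer membrane carnitine palmitoyltransferase that malonyl-CoA inhibits and that is held to set the rate of the pathway, lies on GRCm38 chr19:3323301-3385732 (plus strand). Its FPKM was 271, 204, 259.7, 273 and 262 in NDWT and 130.0, 209, 163, 186 and 172 in HFWT. In NDKO it was 354, 278, 306, 323 and 251, and in HFKO 196, 229.6, 205, 212 and 249. The diets overlapped in wild type livers, where NDWT library 2 lay below HFWT library 2, and did not overlap in livers labelled TSP-1 null. Cpt1a was 32.7% lower in wild type livers (log2FC −0.57, SE 0.12, FDR 2.31e-04) and 27.5% lower in the others (log2FC −0.46, SE 0.12, FDR 0.00163), differences that passed the FDR but stopped just short of the fold threshold in wild type livers. It became called in wild type livers when NDWT library 2, HFWT library 2 or HFWT library 4 was left out (log2FC −0.65, −0.65 and −0.60).

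Slc25a20 encodes the carnitine-acylcarnitine translocase of the inner membrane, which swaps incoming acylcarnitine for free carnitine (chr9:108662098-108684641, plus strand). It had 168, 156, 151, 154 and 154 FPKM in NDWT against 62.5, 96.4, 84.9, 82.04 and 87.4 in HFWT. It stood at 117, 145, 147, 134 and 127 in NDKO against 81.4, 91.5, 95.7, 82.1 and 94.4 in HFKO. No CDAHFD liver reached any control liver of its genotype. Slc25a20 fell by 47.7% in wild type livers (log2FC −0.94, SE 0.09, FDR 3.15e-08) and by 33.5% in livers labelled TSP-1 null (log2FC −0.59, SE 0.09, FDR 1.31e-05). The latter call sits at the fold threshold: leaving out NDKO library 2 or 3 or HFKO library 1 or 4 moved it to between −0.56 and −0.55 in log2FC, below 0.58 in size, with the FDR still at most 6.77e-05.

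Cpt2, which turns acylcarnitine back into acyl-CoA on the matrix side (chr4:107903981-107923610, minus strand), was the member with the largest difference between diets. Its FPKM was 130.4, 119, 112, 117 and 110.2 in NDWT and 50.4, 64.1, 53.1, 54.4 and 46.1 in HFWT, so that the highest CDAHFD liver stayed far below the lowest control liver. In NDKO it was 96.3, 118, 115, 94.5 and 95.04 and in HFKO 60.6, 64.3, 67.7, 67.2 and 61.5. Again no values overlapped. Cpt2 fell by 54.6% in wild type livers (log2FC −1.14, SE 0.08, FDR 5.17e-10) and by 37.8% in livers labelled TSP-1 null (log2FC −0.69, SE 0.08, FDR 5.83e-07).

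Upstream sequence is shown for the pair of members that fell in both genotypes and for Acads, which had the smallest diet difference in wild type livers. The letters come from RefSeq promoter windows on GRCm38.p6 (250 bases before to 50 after the start), cut back to bases lying before the start in both annotations; capitals mark a GC box, GGGCGG or its reverse complement. All 10 members matched a window. The stretches are chr4:107923611-107923839 (minus strand), chr9:108661886-108662097 (plus strand) and chr5:115119347-115119596 (minus strand).
Cpt2: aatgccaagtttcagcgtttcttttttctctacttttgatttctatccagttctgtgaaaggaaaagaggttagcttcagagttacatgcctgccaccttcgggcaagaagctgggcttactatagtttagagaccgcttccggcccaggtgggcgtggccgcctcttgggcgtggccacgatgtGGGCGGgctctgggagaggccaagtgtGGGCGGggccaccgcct
Slc25a20: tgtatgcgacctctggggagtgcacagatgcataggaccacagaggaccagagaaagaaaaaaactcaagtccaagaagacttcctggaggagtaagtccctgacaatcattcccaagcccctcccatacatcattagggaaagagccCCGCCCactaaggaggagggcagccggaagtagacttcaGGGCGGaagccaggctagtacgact
Acads: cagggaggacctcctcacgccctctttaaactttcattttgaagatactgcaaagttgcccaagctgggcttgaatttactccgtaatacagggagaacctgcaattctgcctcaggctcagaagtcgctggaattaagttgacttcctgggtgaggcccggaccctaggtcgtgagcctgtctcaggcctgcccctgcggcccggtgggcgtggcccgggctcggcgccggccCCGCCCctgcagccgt
GGGCGG on either strand was found in 8 of the 10 member windows, all but Acadm and Acadvl, against 35.7% of all 32851 windows. The windows of Hadha and Hadhb overlap, and the 1 GC box in that of Hadha is also counted for Hadhb. AGGTCA, the core element bound by nuclear receptors such as PPARα, was found in 3, Acadm, Acadvl and Cpt1a, against 16.3% of all windows. The longer CAAAGGTCA, and a direct repeat of AGGTCA with any 1 base between the copies, occurred in none of the member windows and in 0.478% and 0.0396% of all windows. Any window with one of the longer forms also counts for AGGTCA. These are descriptions of letters, and the GC box stood in the window of Acads as well as in those of Cpt2 and Slc25a20.

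The first step inside the matrix is taken by acyl-CoA dehydrogenases that differ in the chain lengths they accept, and their genes differed in how far they moved. Acadm, for medium chains (chr3:153922357-153944632, minus strand), had 235, 198, 234, 231 and 249 FPKM in NDWT and 110.4, 155, 154, 129 and 158 in HFWT. Its values were 184, 208, 224, 192 and 149.8 in NDKO and 137, 149.9, 163, 154 and 137 in HFKO. The wild type groups did not overlap and the other pair did, since NDKO library 5 lay among the HFKO livers. Acadm fell by 38.8% in wild type livers (log2FC −0.71, SE 0.11, FDR 8.61e-06). In livers labelled TSP-1 null it was 22.1% lower, past the FDR but not the fold threshold (log2FC −0.36, SE 0.11, FDR 0.00583).

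Acadvl, the very long chain enzyme, which is bound to the inner membrane (chr11:70010183-70015411, minus strand), ran from 114 to 132 FPKM in NDWT and 104 to 136 in NDKO down to 82.2 to 106 in HFWT and 91.5 to 94.05 in HFKO. The diets did not overlap in either genotype, yet the differences stayed under the fold threshold (log2FC −0.45, SE 0.08, FDR 3.09e-05, and log2FC −0.38, SE 0.08, FDR 1.91e-04). It shares 2119 bases with Dvl2 on the other strand, which read 0.805 to 2.60 FPKM, and whether counting used strand is not given in the sources used here. Acadl, for long chains (chr1:66830839-66863277, minus strand), overlapped between diets: 128 to 150.0 in NDWT, 87.8 to 136 in HFWT, 104 to 149 in NDKO and 117 to 131 in HFKO. Its log2FC was −0.27 (FDR 0.0295) in wild type livers and −0.07 (FDR 0.568) in the others.

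Acads, the short chain enzyme (chr5:115110299-115119346, minus strand), showed the smallest difference in wild type livers. It had 93.5, 85.7, 68.3, 71.04 and 71.00 FPKM in NDWT and 72.4, 78.4, 74.02, 73.4 and 70.6 in HFWT. In NDKO it had 73.9, 87.7, 85.99, 64.6 and 65.8 and in HFKO 75.9, 80.5, 81.9, 79.01 and 79.6. All groups overlapped. The log2FC was −0.07 in wild type livers (95% interval −0.26 to 0.12, FDR 0.511) and 0.08 in livers labelled TSP-1 null (−0.11 to 0.27, FDR 0.434). Measured against the median of all genes these are −0.60 and −0.42, and under median of ratios scaling Acads was called lower in wild type livers (log2FC −0.63) and read −0.45 in the others, so its direction depends on what is held fixed.

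Long chains go on to the trifunctional protein, a complex of the α subunit Hadha (hydratase and dehydrogenase) and the β subunit Hadhb (thiolase). Their genes lie head to head on chromosome 5, Hadha on the minus strand (chr5:30118301-30155162) and Hadhb on the plus strand (chr5:30155248-30184593), and only 85 bases part them. That stretch is printed because both genes start at its ends and both were called lower in wild type livers; it is chr5:30155163-30155247 on the plus strand, with GC boxes in capitals.
Hadha to Hadhb: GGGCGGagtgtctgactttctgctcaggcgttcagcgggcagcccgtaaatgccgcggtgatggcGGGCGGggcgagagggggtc
A GC box stands at the Hadha end and another near the Hadhb end. Hadha had 147, 139, 142, 157 and 148 FPKM in NDWT and 70.2, 96.7, 90.3, 78.9 and 99.2 in HFWT. It had 110.0, 128, 143, 128 and 98.6 in NDKO and 86.8, 95.5, 98.2, 84.5 and 101 in HFKO. The wild type groups did not overlap, while NDKO library 5 lay within the HFKO range. Hadha fell by 41.05% in wild type livers (log2FC −0.76, SE 0.10, FDR 1.30e-06) and was 22.8% lower, under the fold threshold, in livers labelled TSP-1 null (log2FC −0.37, SE 0.10, FDR 0.00247).

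Hadhb followed at lower FPKM values, 53.9, 47.4, 53.4, 57.5 and 57.5 in NDWT and 23.6, 36.7, 37.1, 29.7 and 36.5 in HFWT. It read 40.8, 48.9, 53.7, 50.3 and 34.7 in NDKO and 32.4, 35.6, 36.3, 34.3 and 35.03 in HFKO. Overlap was as for Hadha, absent in wild type livers and due to NDKO library 5 in the others. Hadhb fell by 39.97% in wild type livers (log2FC −0.74, SE 0.12, FDR 2.12e-05), and its log2FC in livers labelled TSP-1 null was −0.38 (SE 0.12, FDR 0.00913).

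Hadh, the matrix 3-hydroxyacyl-CoA dehydrogenase of medium and short chains (chr3:131233419-131272101, minus strand), was set apart by NDWT alone. Its FPKM was 96.7, 87.7, 85.5, 82.9 and 91.3 in NDWT and 67.4, 71.6, 82.4, 68.6 and 67.2 in NDKO. On CDAHFD it was 60.8, 71.8, 70.6, 70.1 and 73.5 in HFWT and 68.1, 76.2, 71.5, 66.02 and 67.1 in HFKO. Every NDWT liver lay above every liver of the other 3 groups, which overlapped one another. The diet difference was −0.36 in wild type livers (SE 0.07, FDR 9.83e-05) and −0.03 in livers labelled TSP-1 null (95% interval −0.17 to 0.11, FDR 0.688), neither past the fold threshold.

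**Figure D2:**
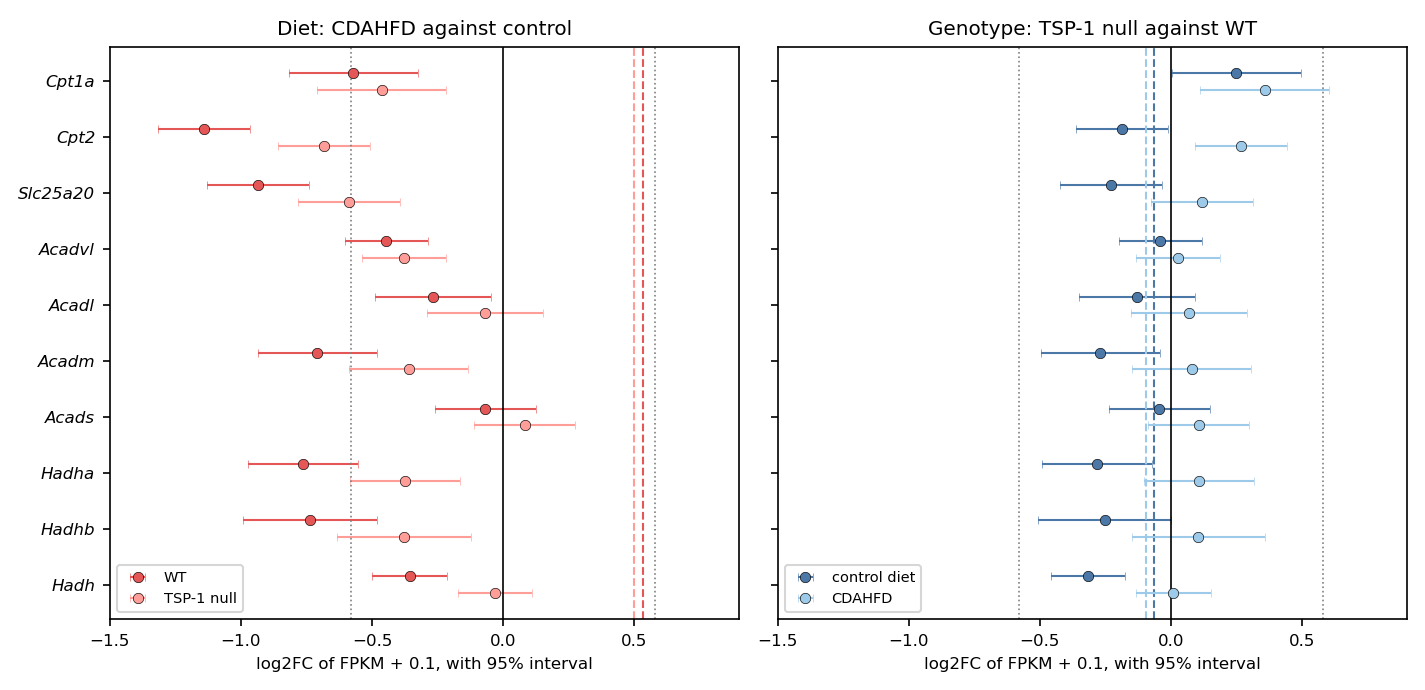
log2FC of FPKM + 0.1 with 95% interval for each gene, for diet (left; WT and labelled TSP-1 null) and genotype (right; control diet and CDAHFD). Dotted lines mark the fold threshold of 0.58 and dashed lines the median of all 14524 tested genes, 0.53 and 0.50 on the left; every diet point lies left of its dashed line.

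Over the members, all 10 log2FCs were below 0 in wild type livers and 9 of 10 in livers labelled TSP-1 null, where Acads was the exception; 18.5% and 17.7% of all tested genes were below 0. The members' median log2FC was −0.64 and −0.38, or −1.17 and −0.87 less the median of all genes. Groups did not overlap for 7 members in wild type livers (Cpt2, Slc25a20, Acadvl, Acadm, Hadha, Hadhb and Hadh) and for 4 in the others (Cpt1a, Cpt2, Slc25a20 and Acadvl), beside 5.7% and 5.03% of tested genes that were lower without overlap. The summed FPKM of the 10 genes was 1294 to 1477 in NDWT and 1097 to 1439 in NDKO, against 750.4 to 1034 in HFWT and 950.4 to 1041 in HFKO.

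Cell type markers moved with diet as well. Of 12 hepatocyte markers 2 were called lower in wild type livers (Fgb and Tat) and 3 in livers labelled TSP-1 null (Cps1, Ass1 and Tat), with a median log2FC of −0.20 and −0.38; with median of ratios scaling the numbers were 10 and 8. Their summed FPKM was 38325 to 46155 in NDWT and 43229 to 50951 in NDKO, against 29839 to 41869 in HFWT and 38543 to 50037 in HFKO, and none of the 12 was at 0 in any group. Of 10 macrophage markers 9 were called higher and Clec4f, a Kupffer cell lectin, lower in both genotypes, their sum moving from 247 to 332 and 242 to 393 on control diet to 1534 to 2038 and 967 to 2063 on CDAHFD. All 8 stellate cell markers were called higher in both genotypes (sums of 47.4 to 60.7 and 60.6 to 67.1 against 252.4 to 491 and 259 to 356), as were all 4 cholangiocyte markers (2.05 to 3.11 and 2.58 to 3.85 against 23.4 to 45.6 and 17.7 to 34.4), 6 of 7 T and B cell markers and both tested neutrophil markers. Of 5 endothelial markers 1 and 2 were called higher, in comparisons where 44.1% and 41.9% of all tested genes were. Under median of ratios scaling 7 stellate cell markers were called higher in each genotype, 5 and 3 T and B cell markers, and 0 and 1 endothelial markers, with 2 endothelial markers called lower in wild type livers; the macrophage, cholangiocyte and neutrophil counts did not move. The 4 muscle markers were at most at 0.172 FPKM. The part of these shifts in the members' values was not tested.

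Genes for other mitochondrial proteins gave the following counts. Of 28 genes of the citric acid cycle, respiratory chain, import and matrix, 1 was called lower (Fh1, fumarate hydratase) and 1 higher in each genotype (Idh3a in wild type livers, Cs, citrate synthase, in the others), with median log2FCs of −0.03 and −0.09. Under median of ratios scaling 14 and 15 of the 28 were called lower. Fh1 was 63.1 ± 15.2 FPKM in NDWT and 36.4 ± 3.62 in HFWT (log2FC −0.77, SE 0.14, FDR 4.40e-05).

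Comparing TSP-1 null with WT labels on control diet, limma called none of the 10 genes, against 3.03% of tested genes called lower and 1.74% higher. By limma-voom on recovered fragments none was called either. Of the 10 genes 9, all but Cpt1a, had a log2FC below 0, as did 61.4% of all genes, and the members' median was −0.21 beside −0.07 for all genes. Hadh was the only member to pass the FDR (log2FC −0.32, SE 0.07, FDR 0.00479), a 19.7% lower level without overlap, under the fold threshold. Slc25a20 did not overlap either (log2FC −0.23, FDR 0.114), whereas 6.69% of all genes were lower without overlap. Under median of ratios scaling Hadh read −0.24 and no longer passed the FDR (0.0565). With single libraries left out, the lowest FDR was 0.0372 for Slc25a20 and 0.0343 for Hadha. Cpt1a had the opposite sign, at 302 ± 39.8 FPKM in NDKO against 254 ± 28.7 in NDWT (SD, n = 5; log2FC 0.25, FDR 0.179). Of the 12 hepatocyte markers 9 lay above 0 in this comparison, with a median of 0.13, and 2 were called higher. Their part in the members' values was not tested.

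On CDAHFD no member was called between genotypes by limma or by limma-voom, with 0.33% of tested genes called lower and 0.165% higher. All 10 log2FCs lay above 0, against 29.4% of genes, with a median of 0.11 beside −0.10 for all genes. The highest were 0.36 for Cpt1a (FDR 0.134) and 0.27 for Cpt2 (FDR 0.117). The uniform sign was lost when single libraries were left out: without HFWT library 1 Acadvl, Acadl, Acadm, Hadhb and Hadh turned to between −0.037 and −0.0059, and Hadh also turned without HFKO library 2 (−0.023) or 3 (−6.8e-05). Of the 12 hepatocyte markers 11 also lay above 0 in this comparison, with a median of 0.25, and their part in the members' values was not tested.

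Whether the diet effect differed between genotypes was tested as an interaction, the diet log2FC in livers labelled TSP-1 null less that in wild type livers. No member was called by limma or limma-voom, with 0.31% of tested genes called lower and 0.337% higher. The interaction was above 0 for all 10 members, as for 45.3% of genes, at a median of 0.34 beside −0.03 for all genes. That uniform sign was lost without HFWT library 1 and NDKO library 5 together, where Cpt1a read −0.053 and Acadvl −0.028. The interaction was largest for Cpt2, at 0.45 (95% interval 0.21 to 0.70, FDR 0.0698). Over the alternatives the FDR of Cpt2 ran from 0.0333 to 0.131, with the interaction always below the fold threshold in size. Hadha followed at 0.39 (0.09 to 0.68, FDR 0.189) and Hadh stood at 0.33 (0.13 to 0.53, FDR 0.106). Each interaction uses the same 4 groups as the comparisons above. Since no member's interaction was called, the count of 5 and 2 called members is not shown to be a difference between genotypes.

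FPKM is per length, so levels were ranked between genes. The length is 1 annotated value per gene, from 1783 bases for Slc25a20 to 6595 for Hadhb. Whether it matches the transcripts expressed in these livers was not tested, and the ranks between genes rest on it. Cpt1a had the highest mean FPKM in all 4 groups (among the top 1.29 to 2.09% of tested genes) and Acadm the next, while Hadhb had the lowest in all 4 (top 6.56 to 11.2%). Cpt1a and Acadm did not overlap in NDKO and HFKO but did in NDWT and HFWT, although Cpt1a was above Acadm in each of the 20 livers. Hadhb overlapped in no group with the gene above it. Slc25a20 went from the third level in both control groups to the sixth in both CDAHFD groups, and Cpt2 from the seventh to the ninth, behind Acads and Hadh. Most of these steps lay between genes with overlapping values: Slc25a20, Hadha, Acadl and Acadvl overlapped their neighbours in NDWT, Slc25a20 was above the next gene, Acadl, in only 2 of 5 NDKO livers, and in both CDAHFD groups Slc25a20 overlapped the genes on either side of it, as Cpt2 did Hadh above it.

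Ratios of FPKM within a library do not depend on how libraries are scaled, and 3 were compared. The size of a ratio rests on the gene lengths used, but its difference between groups does not. The ratio of Hadha to Hadhb was 2.72 in NDWT livers, 2.67 in NDKO, 2.68 in HFWT and again 2.68 in HFKO (geometric means, n = 5), and no difference between groups exceeded 0.03 in log2 in either direction (two-sided exact permutation tests, p = 0.524 to 0.968). Acadl to Acads was 1.83, 1.72, 1.59 and 1.55 in the same order (exact permutation p = 0.111 to 0.762). Cpt1a to Cpt2, the outer against the inner transferase, was 2.15 in NDWT and 2.91 in NDKO, and it was 3.19 in HFWT and 3.39 in HFKO. It was higher in every HFWT liver than in any NDWT liver, by 0.57 in log2, with the smallest p that this exact permutation test allows, 0.00794, and 0.0952 after Benjamini-Hochberg adjustment over the 12 tests. NDKO exceeded NDWT by 0.44 (exact permutation p = 0.0159, adjusted 0.0952). On CDAHFD the difference between genotypes was 0.09 (exact permutation p = 0.484), and between diets in livers labelled TSP-1 null 0.22 (exact permutation p = 0.151). No ratio passed the adjusted threshold, and over 12 tests 1 difference alone at the smallest p could not pass it. The adjusted values therefore do not show that the ratios were equal.

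**Figure D3:**
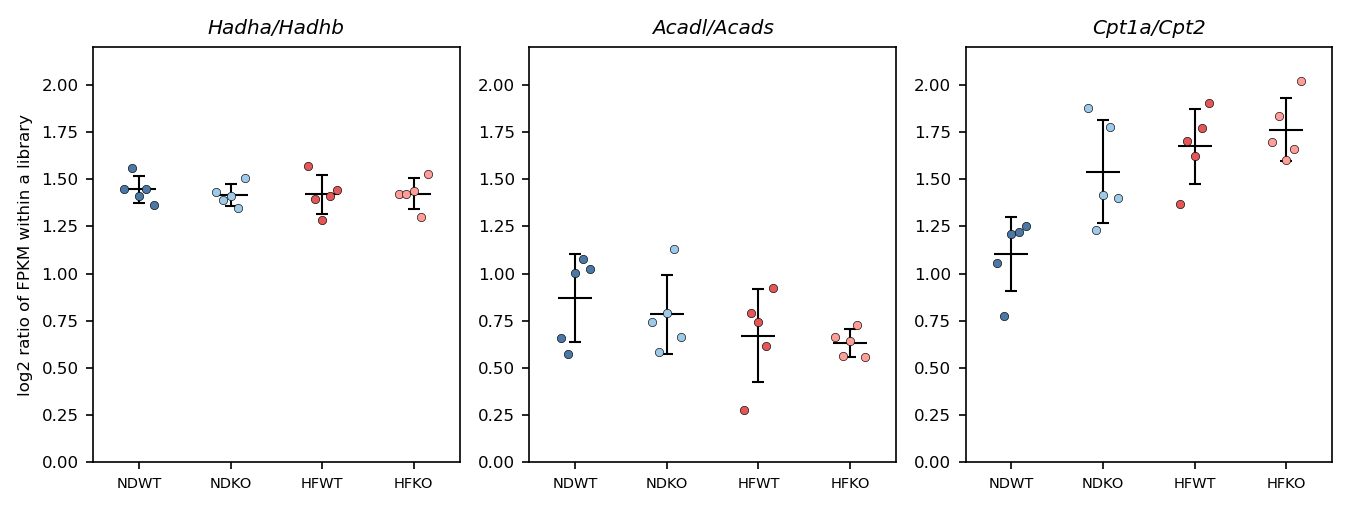
log2 ratio of FPKM within each library (axis from 0) for 3 pairs of members in the 4 groups; points are livers, bars the mean and SD (n = 5). Hadha/Hadhb has group means of 1.42 to 1.45, while Cpt1a/Cpt2 is lowest in NDWT.

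The list of other mitochondrial oxidation enzymes, 24 tested genes besides the members, had 13 called lower and 3 higher in wild type livers and 8 lower and 3 higher in livers labelled TSP-1 null, with median log2FCs of −0.65 and −0.39. Not all of its genes are specific to fatty acids. Under median of ratios scaling 21 were called lower and 1 higher in each genotype. Cpt1b, the muscle isoform, was not tested, at 0.076 to 0.467 FPKM. Acsl1, which activates long-chain fatty acids to acyl-CoA, fell from 390.0 ± 53.3 FPKM in NDWT to 77.5 ± 18.7 in HFWT (log2FC −2.36, SE 0.14, FDR 3.38e-11) and from 334 ± 48.5 in NDKO to 97.1 ± 3.95 in HFKO (log2FC −1.77, SE 0.14, FDR 2.08e-09). Etfdh, which passes electrons from the acyl-CoA dehydrogenases to ubiquinone, fell in both genotypes (log2FC −0.87 and −0.59). So did the carnitine acetyltransferase Crat (−1.70 and −0.87), the carnitine transporter Slc22a5 (−1.52 and −1.11) and Acad11 (−1.07 and −0.81). Cpt1c, known chiefly from brain, rose (log2FC 2.62 and 2.36), from 0.135 ± 0.0324 to 1.35 ± 0.204 FPKM in wild type livers. The other genes called higher, Acad9 and Acad12, were not called once libraries were scaled by median of ratios.

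Of 20 regulators, 4 were called lower and 4 higher in wild type livers and 2 lower and 3 higher in livers labelled TSP-1 null; under median of ratios scaling 9 were called lower and 0 higher in each genotype. Ppara, the receptor itself, fell from 76.6 ± 11.99 FPKM in NDWT to 32.9 ± 6.05 in HFWT (log2FC −1.22, SE 0.14, FDR 1.44e-07) and from 57.4 ± 5.63 in NDKO to 36.8 ± 6.08 in HFKO (log2FC −0.65, SE 0.14, FDR 2.75e-04). Acacb, whose malonyl-CoA at the mitochondrial surface inhibits Cpt1a, fell in both genotypes (log2FC −1.54 and −1.66). Creb3l3, a liver transcription factor of the fasting response, fell in wild type livers (−0.83). On control diet 2 regulators were higher in livers labelled TSP-1 null: Lpin1 (log2FC 1.30, FDR 7.19e-04) and Ppargc1a, the PGC-1α coactivator (1.28, FDR 0.00219). Lpin1 was also called on CDAHFD (0.91, FDR 0.0401).

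PPARα targets outside the mitochondrial cycle had lower median log2FCs than the members. Of 16 genes, 14 were called lower in wild type livers and 9 in livers labelled TSP-1 null, at −1.42 and −0.71. Under median of ratios scaling 14 and 13 were called lower. Acot1, an acyl-CoA thioesterase, fell in both genotypes (log2FC −4.22 and −2.78). Slc27a2, a fatty acid transporter and very long chain acyl-CoA synthetase, also fell (−1.36 and −1.13), in wild type livers by less than the list median. On control diet Fabp1, the liver fatty acid binding protein, and Vnn1 were called lower in livers labelled TSP-1 null. Fabp1 was 6597 ± 564 FPKM in NDWT and 3513 ± 1046 in NDKO, against 2398 ± 462 in HFWT and 2747 ± 264 in HFKO, and had a called interaction of 1.17 (FDR 0.0257).

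**Figure D4:**
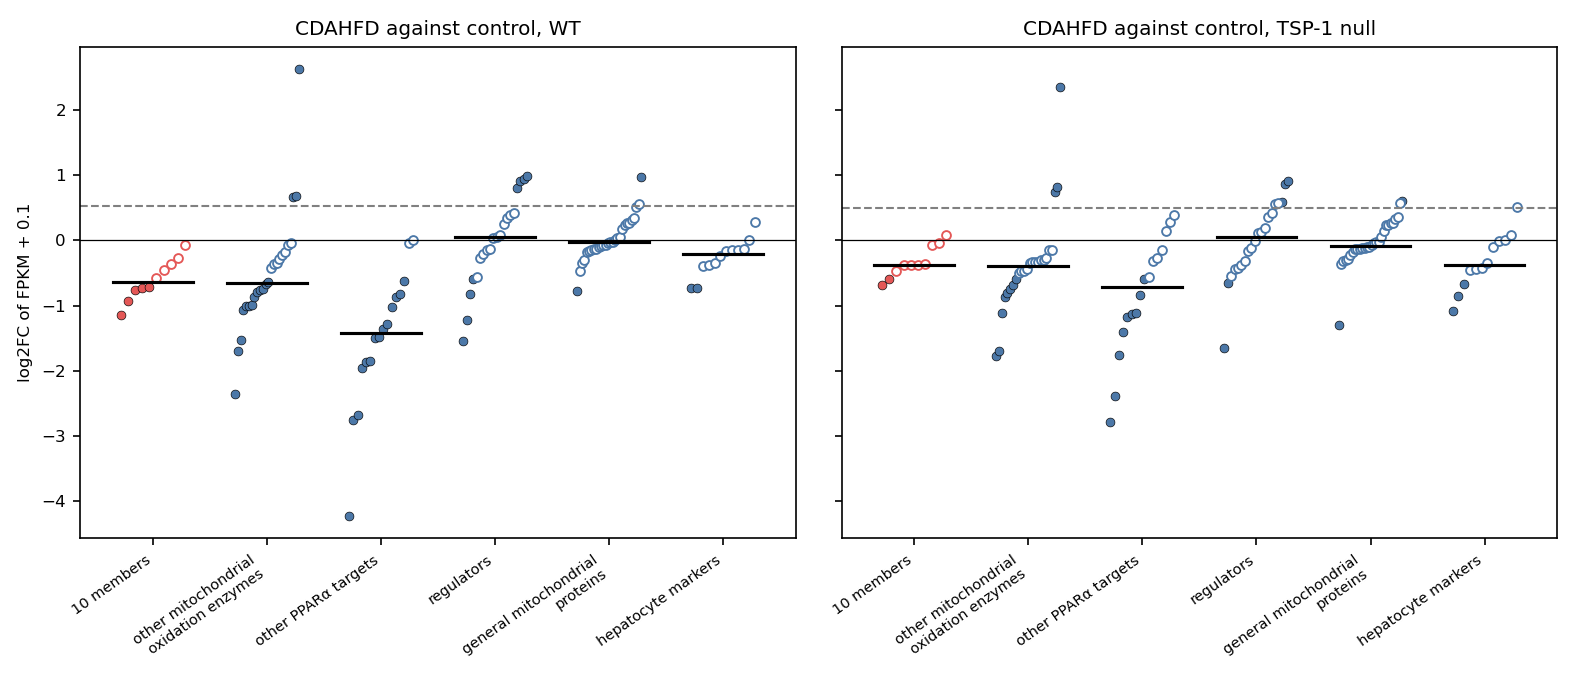
log2FC of FPKM + 0.1 on CDAHFD against control diet for each gene of 6 lists, in WT (left) and in livers labelled TSP-1 null (right); filled points are called, open points are not, black lines are list medians and the dashed line is the median of all tested genes. Members lie at medians of −0.64 and −0.38, between the other PPARα targets (−1.42 and −0.71) and the general mitochondrial proteins (−0.03 and −0.09).

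Among the genes with profiles most like the members' mean profile over the 20 libraries were Acaa2, Pctp, Acsf2 and Dhrs4, by the root mean square difference of centred log2 values (0.081 to 0.105, against a median of 0.60 over all tested genes). Acaa2 is the mitochondrial thiolase of the last step of the cycle. Acaa2 was 728 ± 47.4 FPKM in NDWT and 469.7 ± 47.8 in HFWT. The members' own distances ran from 0.095 for Acadvl to 0.267 for Acads, with Acadm and Hadha close to the former at 0.096 and Cpt2, whose change was steeper, at 0.254. All libraries enter both sides of this measure, and it is a description only.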

How the data were processed

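FPKM values per gene were used as deposited by the authors, who aligned and counted liver poly(A) reads with QuickRNASeq; the submitters' processing notes list STAR 2.5.2 and featureCounts of Subread 1.5.1. The notes name a human build, but the table's coordinates are those of GRCm38. The paper takes the tissue from the right lateral lobe and the series design from the right medial lobe. Fragments recovered from FPKM, gene length and library total came out whole, to within 0.1, for 99.9895% of the checked values in the lowest library (93.3% or more of positive values were checked). No pair of libraries within a group agreed within sampling noise (chi-square per degree of freedom at least 13.0 over 40 pairs). No column of another sample was left over.

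Tests ran in limma 3.58.1 (R 4.3.3; eBayes with trend, 1 fit of all 20 libraries) on log2(FPKM + 0.1) for genes above 0.5 FPKM in at least 5 libraries, with p-values two-sided. Fold changes are on that scale, which understates those of low genes. The script was tested on simulated data. Intervals are 95%. Ratios were compared with exact permutation tests (scipy 1.17.1). Replicates are separate mice. Alternatives were pseudocounts of 0.01 and 1, other filters, median of ratios scaling, quantile normalization, fits of the compared groups alone, eBayes without trend, limma-voom on recovered fragments, no fold threshold, a replicate block and each library left out.

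The members and all gene lists were chosen with earlier results of these data known: other mitochondrial oxidation enzymes, regulators, other PPARα targets, general mitochondrial proteins and markers of hepatocytes, macrophages, stellate cells, T and B cells, endothelium, cholangiocytes, neutrophils and muscle. Named are the members, Thbs1, at most the 6 called genes of a list with the lowest FDR in a comparison, and the 5 genes nearest in profile. Slc22a5, Acad12, Clec4f, Cpt1b and Dvl2 fall outside that rule and were chosen after their values were seen. Some genes that the rule names are not reported here. Protein sequences were not used here.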

Additional observations from a re-analysis of the deposited data

Results flagged for a closer look

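Single livers that stood apart from the other 4 of their group by Dixon's 95% criterion for 5 values (gap over range above 0.71) were searched for in 52 groups, the 10 members and 3 ratios in each of 4 groups. The criterion is met by chance in about 1 group in 20, and 3 were found. Cpt1a in NDWT library 2 was 203.9 FPKM, below the next value of 259.7. Slc25a20 in NDWT library 1 was 168.4 FPKM, above the next of 155.8. Hadh in HFWT library 1 was 60.8 FPKM, below the next of 70.1. Without NDWT library 2 the diet log2FC of Cpt1a in wild type livers was −0.65 and passed the fold threshold. None of these departures was explained further.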

How the results depend on the processing

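Of the summary counts and ratios, 430 of 450 recomputed values kept their direction and their side of the threshold or stayed within 1.5 times, 9 moved and 11 changed sign. Of the single members' log2FCs, 1533 of 1590 did, 25 became called, 5 lost their call and 27 changed sign. Members called lower on CDAHFD numbered 10 in wild type livers and 8 in livers labelled TSP-1 null under median of ratios scaling, and 9 and 7 with no fold threshold, which also gave 1 in the genotype comparison on control diet (Hadh). With no fold threshold 8.73% and 7.69% of all tested genes were called lower on CDAHFD, and 9.6% in that genotype comparison. Quantile normalization kept 5 and 2, with Slc25a20 replaced by Hadhb in the latter. Of all tested genes it called 17.6% and 15.1% lower. Leaving out 1 library gave 1 to 2 in livers labelled TSP-1 null, the lower number without NDKO replicate 2 or 3 or HFKO replicate 1 or 4, and 5 to 6 in wild type livers. Under median of ratios scaling Acads read −0.45 for diet in livers labelled TSP-1 null, and for genotype on control diet Acadvl read 0.035 and Acads 0.031; under quantile normalization these latter were 0.00056 and 0.011. Without HFWT library 1 and NDKO library 5 together, genotype on control diet gave 0.016 for Acadvl and 0.0031 for Acads, genotype on CDAHFD −0.012 for Acadvl, −0.036 for Acadl, −0.0059 for Acadm, −0.0068 for Hadhb and −0.037 for Hadh, and the interaction −0.053 for Cpt1a and −0.028 for Acadvl. With each library left out, the ranges that crossed 0 were −0.11 to 4.5e-05 for Acads (diet, wild type), −0.064 to 0.021 for Hadh (diet, labelled TSP-1 null), −0.081 to 0.016 for Acadvl and −0.10 to 0.025 for Acads (genotype, control diet). For genotype on CDAHFD they were −0.012 to 0.079 for Acadvl, −0.036 to 0.12 for Acadl, −0.0059 to 0.12 for Acadm, −0.0068 to 0.16 for Hadhb and −0.037 to 0.031 for Hadh. For the Hadha to Hadhb ratio in log2 they were −0.062 to 0.0097 (diet, wild type), −0.022 to 0.035 (diet, labelled TSP-1 null) and −0.033 to 0.039 (genotype, CDAHFD), and for Acadl to Acads −0.14 to 0.025 (genotype, CDAHFD). The cause was not tested. The replicate numbers did not pair the livers: deviations from group means of same-numbered libraries correlated at −0.133 to 0.081 over 30 pairs, 0 of them above 0.1. A replicate block changed no call of a member, leaving 5 and 2 called lower. The members had 1906 fragments or more in each library, and whether depth limited their tests was not tested.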

Other observations

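Some genes of the other lists are given here by their values. Hsd17b10, a mitochondrial dehydrogenase of branched-chain and short-chain acyl groups, was 158 ± 24.8 FPKM in NDWT, 216 ± 28.8 in NDKO and 78.4 ± 10.4 in HFWT, and 67.1 ± 11.2 in HFKO (SD, n = 5). It fell on CDAHFD in both genotypes, by limma log2FCs of −1.01 in wild type livers and −1.69 in livers labelled TSP-1 null, and its interaction of −0.68 (FDR 0.0687) had the opposite sign to that of all 10 members. Fh1, fumarate hydratase, was called higher in livers labelled TSP-1 null on control diet (log2FC 0.70, FDR 0.00257), as were the urea cycle genes Cps1 (1.10, FDR 9.49e-04) and Ass1 (1.08, FDR 9.19e-05). Acsl5, another acyl-CoA synthetase, had an interaction of 0.46 that passed the FDR (0.0146) but not the fold threshold, with the same sign as in the members.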
